A study of Mus musculus with 6 samples.

Results

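The genes of the endoplasmic reticulum (ER) stress response and of the ATF4 amino acid response were followed in mouse oviductal epithelial cells that carry mutant p53. They are 36 named genes, matched by symbol, out of 24268 genes tested, and all 36 were found. The cells, called MOE, are a mouse line that stands for the secretory epithelium of the fallopian tube. One stable line held the empty plasmid pCMV-Neo and gave 3 arrays, and the other held a plasmid with p53 R273H, a cancer mutant whose altered residue touches DNA, and gave 3 arrays. Both plasmids carry antibiotic resistance, and both lines grew in the same medium, with serum, epithelial growth factor, insulin, transferrin, selenite, glutamine and estradiol. Each array holds RNA of a cell pellet, and the pellets of a line were taken passage after passage. The transfected cells were grown out from single colonies, and the sources used here do not say how many clones make up a line. The spread behind each p-value is thus that among passages, and clone and plasmid cannot be told apart.

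The values are the authors' normalized log2 expression, so a difference of 1 is a 2-fold change. The arrays of a group correlated at 0.991 to 0.993 across genes and those of different groups at 0.964 to 0.966, where genes are not independent replicates. The Trp53 signal was 10.05, 10.00 and 10.14 with empty vector and 9.49, 9.28 and 9.39 with p53 R273H; probe sequences were not used, so it does not check the labels. Of 8 oviductal epithelium markers 1 rose and 3 fell with p53 R273H. Krt7 went from a mean of 7.98 to 9.78, Krt19 from 8.82 to 6.31, Ovgp1 from 6.21 to 4.93 and Krt8 from 10.42 to 9.24. Krt18, Pax8, Cdh1 and Epcam did not pass the test, and the adhesion molecule Epcam stood at 4.05 and 4.03, under 4.53, the median of all transcript clusters. Of 6 leukocyte markers only Cd68 exceeded that median, as did 2 of 4 endothelial, 2 of 3 smooth muscle, 4 of 5 fibroblast and 1 of 3 ciliated cell markers. The ciliated cell marker Foxj1 fell from a mean of 5.86 to 4.99, Cd68 from 8.05 to 7.32 and the smooth muscle marker Cnn1 from 5.70 to 4.84. The leukocyte marker Ptprc rose from 3.50 to 4.10, under that median in both groups. No other marker of these 4 lists without the fibroblast one passed the test. Of the 5 fibroblast markers 3 rose and 1 fell, with a median difference of 0.72: Dcn went from a mean of 3.32 to 8.02, Pdgfra from 4.72 to 5.82, Col1a1 from 5.35 to 6.07 and Col1a2 from 5.60 to 4.56. The part of these markers in the results below was not tested. In bulk samples, a change of RNA per cell and a change in the share of cells cannot be told apart.

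Proteins that fold badly in the ER are sensed by the membrane proteins IRE1, PERK and ATF6. IRE1 removes an intron from the Xbp1 messenger, whose product then activates genes for folding and degradation. PERK and related kinases phosphorylate the initiation factor eIF2, which lowers translation in general and favours that of ATF4, a factor that turns on amino acid synthesis, amino acid import and stress effectors. Splicing, phosphorylation, cleavage and protein level are not read by these arrays, which give one signal per transcript cluster.

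The comparison asks which of these genes differ in cells that carry the p53 mutant. The sensor Ern1, its target Xbp1 and the 4 stress effectors Chac1, Trib3, Ppp1r15a and Nupr1 were higher in the p53 R273H line, together with Psph, Aldh18a1 and Mthfd2 among the amino acid enzymes. Smaller rises were measured in the folding genes Hspa5, Dnajb9, Sdf2l1, Pdia6 and Pdia3. Asns and Cebpb were lower. In all, 14 of the 36 genes rose, 2 fell and 20 did not pass the test, a limma adjusted p under 0.05. Over all genes 23.6% passed it (11.9% rose and 11.7% fell), against 38.9% and 5.56% of the members. All 36 members had a signal above the median of all transcript clusters, and among the 14691 genes with such a signal 18.2% rose and 18.2% fell.

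The median log2 difference of the 36 genes was 0.22, and that of all genes was 0.02. The 3 p53 R273H arrays lay above all 3 empty vector arrays for 21 of the 36 members and below them for 3, against 20.0% and 18.1% of all genes, 38.1% together. Among the 14691 genes with a signal above the median, as all members had, the mutant arrays lay above for 4082 and below for 3932. The remaining 12 members overlapped. The median deviation of the members from the empty vector mean was 0.23, 0.23 and 0.25 on the p53 R273H arrays and 0.00, -0.03 and 0.01 on the empty vector arrays, so no single array set it. The SD within a group ran from 0.00 to 0.25 over the members, with a median of 0.09, against 0.14 for all genes. At least 1.5-fold changes were called for 10 members, all higher, where 6.58% of all genes rose and 6.70% fell by that much.

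**Figure D1:**
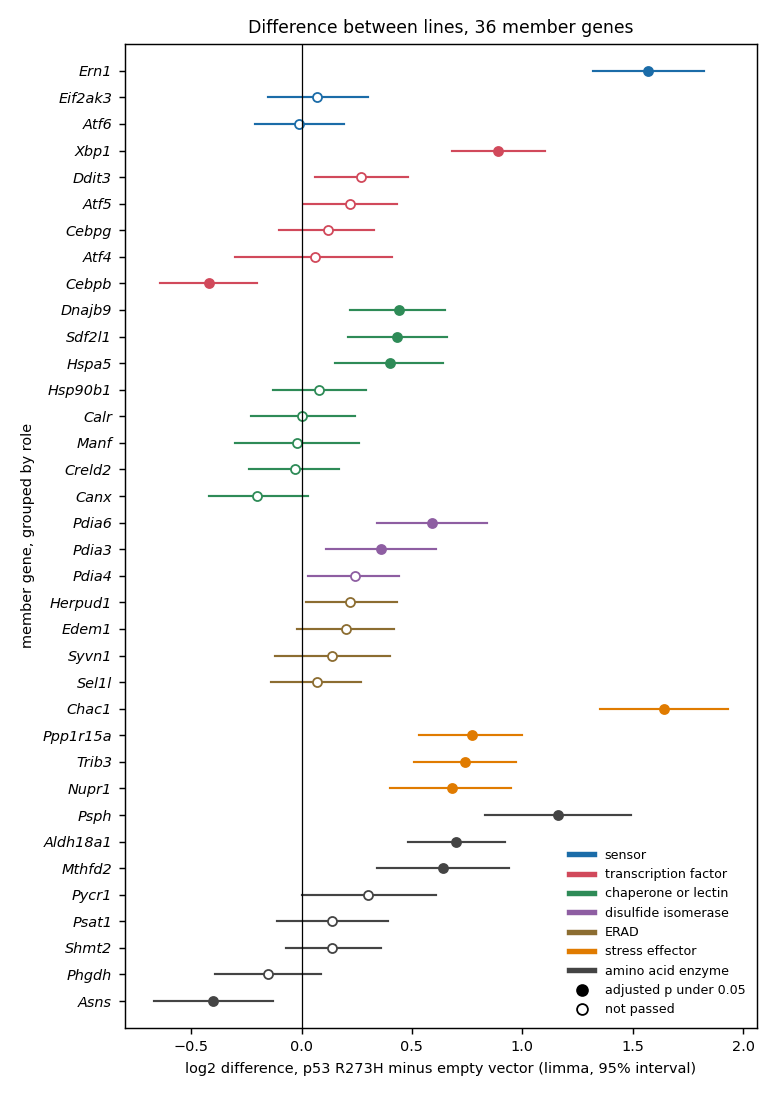
Log2 difference of each of the 36 genes (p53 R273H minus empty vector, horizontal axis) with its 95% interval from limma, grouped by role; filled points passed an adjusted p under 0.05. Ern1, Chac1 and Psph lie beyond 1. The ERAD genes have open points from 0.07 to 0.22, and most chaperones have open points from -0.20 to 0.08.

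Of the 3 sensors Ern1 rose and the other two did not pass the test. Ern1 encodes IRE1, the kinase and ribonuclease that splices the Xbp1 messenger (transcript cluster 17270888, chromosome 11). Its log2 values were 7.40, 7.49 and 7.72 with empty vector and 9.07, 9.08 and 9.16 with p53 R273H. The groups were separated by a gap of 1.35, and the mutant arrays were close to each other. The rise of 1.57 ± 0.11 (SE), a 2.97-fold change, had a limma adjusted p of 4.15e-05 and an interval from 1.32 to 1.82. Its means were 7.54 ± 0.17 and 9.10 ± 0.05 (SD, n = 3 per group).

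Eif2ak3, the gene for PERK, was at 8.18, 8.12 and 8.20 with empty vector and at 8.36, 8.14 and 8.21 with p53 R273H. Atf6, the sensor that is cleaved in the Golgi into a transcription factor, was at 9.11, 9.12 and 9.13 and then at 9.06, 9.14 and 9.12. The groups overlapped for both genes. The differences were 0.07 ± 0.10, with an interval from -0.15 to 0.30, and -0.01 ± 0.08, with an interval from -0.21 to 0.19, so a change as large as that of Ern1 lies outside both intervals.

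Of the 6 transcription factors 1 rose, 1 fell and 4 did not pass the test. Xbp1 (transcript cluster 17246967, chromosome 11) was at 8.45, 8.53 and 8.59 with empty vector and at 9.45, 9.35 and 9.43 with p53 R273H. Every mutant array was above every control array, with a gap of 0.76. Xbp1 rose 1.85-fold, by 0.89 ± 0.09, with a limma adjusted p of 0.000282.

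Atf4, the central factor of the amino acid response (transcript cluster 17313100), was at 9.59, 9.32 and 9.21 with empty vector and at 9.16, 9.51 and 9.61 with p53 R273H. The ranges of the groups covered each other, and the SDs of 0.20 and 0.23 were among the widest of the members. The difference was 0.06 ± 0.15, with an interval from -0.30 to 0.41 and a limma adjusted p of 0.849. Atf4 lies on chromosome 15, where the 40 genes next to it with a signal above the median had a median difference of -0.42. Set against those neighbours Atf4 was higher by 0.48, and what the neighbours contribute to its value was not tested.

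Ddit3, which encodes the death-linked factor CHOP, was at 8.01, 7.90 and 8.01 and then at 8.30, 8.20 and 8.23. Atf5, a factor related to ATF4, was at 7.65, 7.61 and 7.67 and then at 7.82, 7.96 and 7.80. Neither gene overlapped between the groups, but both missed the threshold. Ddit3 differed by 0.27 ± 0.09 with a limma adjusted p of 0.0719, and passed under 4 of 15 alternatives, over which its adjusted p ran from 0.0167 to 0.212. Atf5 differed by 0.22 ± 0.09 with a limma adjusted p of 0.138.

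The C/EBP factors can pair with ATF4 on DNA. Cebpb, also an inflammatory regulator, was at 7.20, 7.35 and 7.16 with empty vector and at 6.77, 6.83 and 6.86 with p53 R273H. All mutant values were below the control values, and the fall was 1.33-fold, a log2 difference of -0.42 ± 0.09 with a limma adjusted p of 0.0153. Without empty vector replicate 2 the adjusted p was 0.0619, in a range from 0.00251 to 0.0619 over the 15 alternatives. Cebpg overlapped between groups, at 0.12 ± 0.09.

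**Figure D2:**
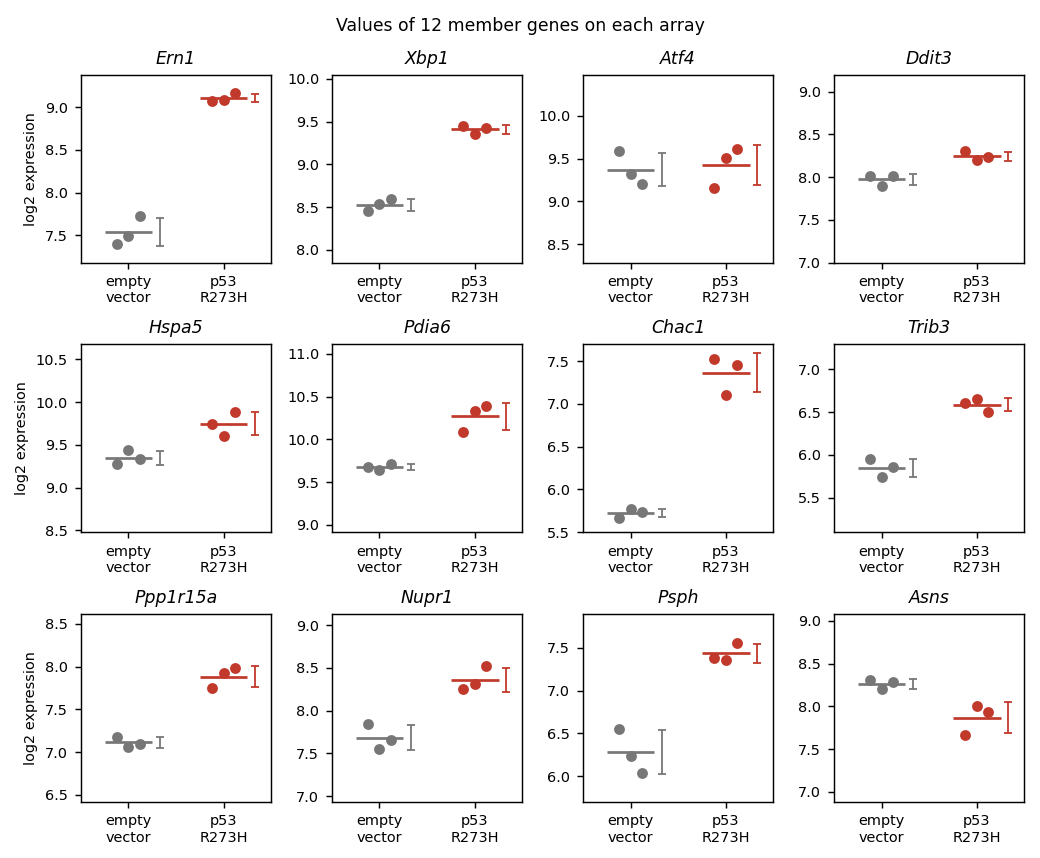
Log2 expression of 12 genes on each array (points), with the group mean (line) and SD (bar at the side, n = 3); every panel spans the same height. Ern1, Xbp1, Chac1, Trib3, Ppp1r15a, Nupr1 and Psph have groups well apart, Atf4 overlaps, and Asns is lower with p53 R273H.

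The 4 stress effectors, which act downstream of ATF4 and CHOP, all rose, and no mutant array of any of them overlapped a control array. Chac1, an enzyme that breaks down glutathione (transcript cluster 17374807, chromosome 2), was at 5.67, 5.77 and 5.73 with empty vector and at 7.53, 7.11 and 7.46 with p53 R273H. The mutant arrays spread more than the controls, and the lowest of them was still 1.34 above the highest control. Chac1 rose 3.12-fold, by 1.64 ± 0.13, with a limma adjusted p of 6.75e-05. Chac1 and Ern1 had the largest differences of the 36 genes, and their order was not stable: without p53 R273H replicate 1 they were 1.56 and 1.59, and without empty vector replicate 3 they were 1.64 and 1.66.

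Trib3, a pseudokinase that restrains ATF4 and CHOP (transcript cluster 17392925, chromosome 2), was at 5.95, 5.74 and 5.86 and then at 6.61, 6.65 and 6.50. Ppp1r15a, which encodes GADD34 and directs the phosphatase that removes phosphate from eIF2, was at 7.18, 7.06 and 7.10 and then at 7.75, 7.92 and 7.98. Nupr1, a stress-induced chromatin protein, was at 7.84, 7.55 and 7.66 and then at 8.25, 8.31 and 8.52. The 3 genes changed by similar amounts: Trib3 rose 1.67-fold (adjusted p = 0.00121), Ppp1r15a 1.70-fold (adjusted p = 0.00102) and Nupr1 1.60-fold (adjusted p = 0.00431), all by limma. The Atf4 signal itself did not pass the test, as given above.

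The sequences before the start of some of these genes hold letters known as binding motifs, and they are shown for the called members in which a full motif was found. The first motif is the amino acid response core TGATGNAA, which C/EBP and ATF4 pairs bind. The second is the ER stress element (ERSE), CCAAT and CCACG with 9 bases of any kind between them, bound by ATF6 and XBP1 with the factor NF-Y. Both strands were searched from 250 bases before to 50 bases after the start in RefSeq promoters (GRCm38.p6), which were given for 34 of the 36 genes. The 250 bases before the start are printed 5′ to 3′ on the gene's strand, with the matches in capitals. They are chr2:119350992-119351241 on the plus strand for Chac1, chr7:126625471-126625720 on the minus strand for Nupr1, and chr6:7693210-7693459 on the minus strand for Asns, all with the amino acid response core. They are chr2:34771840-34772089 on the plus strand for Hspa5 and chr12:17266339-17266588 on the plus strand for Pdia6, both with the ERSE.
Chac1: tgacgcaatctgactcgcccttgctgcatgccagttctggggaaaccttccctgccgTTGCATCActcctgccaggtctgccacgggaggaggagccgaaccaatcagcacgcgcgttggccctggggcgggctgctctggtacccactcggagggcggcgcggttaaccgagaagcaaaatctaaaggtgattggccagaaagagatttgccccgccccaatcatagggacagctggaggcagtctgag
Nupr1: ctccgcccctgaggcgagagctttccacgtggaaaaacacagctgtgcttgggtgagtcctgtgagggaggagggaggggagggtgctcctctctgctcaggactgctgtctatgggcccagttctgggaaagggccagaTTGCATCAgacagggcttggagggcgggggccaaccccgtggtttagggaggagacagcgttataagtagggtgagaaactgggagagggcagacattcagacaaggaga
Pdia6: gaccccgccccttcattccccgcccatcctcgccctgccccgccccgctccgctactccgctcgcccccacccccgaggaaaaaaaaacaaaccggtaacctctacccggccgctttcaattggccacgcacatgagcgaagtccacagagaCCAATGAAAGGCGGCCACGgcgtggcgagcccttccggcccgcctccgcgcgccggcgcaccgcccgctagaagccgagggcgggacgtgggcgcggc
Asns: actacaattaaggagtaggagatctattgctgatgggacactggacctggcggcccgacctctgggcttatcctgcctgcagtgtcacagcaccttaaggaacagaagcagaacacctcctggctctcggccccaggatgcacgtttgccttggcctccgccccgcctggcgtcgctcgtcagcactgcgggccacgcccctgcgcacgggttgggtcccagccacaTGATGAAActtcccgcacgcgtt
Hspa5: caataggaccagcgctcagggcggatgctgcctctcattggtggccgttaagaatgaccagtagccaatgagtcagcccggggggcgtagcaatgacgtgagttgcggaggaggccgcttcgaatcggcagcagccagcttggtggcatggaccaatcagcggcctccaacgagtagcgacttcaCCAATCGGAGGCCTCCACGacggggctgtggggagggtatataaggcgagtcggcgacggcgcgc

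The amino acid response core was found in 6 member genes, Chac1, Trib3, Nupr1, Asns, Herpud1 and Pycr1, and in 3.97% of the 32851 promoters. In Trib3 it lies after the start, from position 15 to 22, and so that promoter is not printed. Of these 6 genes 3 rose, 1 fell and 2 did not pass the test. The ERSE was found in 7 member genes, Hspa5, Hsp90b1, Calr, Canx, Creld2, Pdia6 and Syvn1, and in 0.119% of the promoters. Of these 7, Hspa5 and Pdia6 rose and 5 did not pass the test, with differences from -0.20 to 0.14. The shorter core ACGTG was found in 12 member genes and in 19.6% of the promoters. For each motif the members were counted by gene and the background by promoter, so the units differ. No match to one motif overlapped a match to another in these genes. A match describes letters and is not evidence that a factor binds there in these cells.

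The chaperones and lectins of the ER lumen gave 3 rises among 8 genes, all under 1.5-fold. Hspa5, the major ER chaperone BiP, was at 9.28, 9.44 and 9.33 with empty vector and at 9.75, 9.61 and 9.88 with p53 R273H. Dnajb9, a BiP co-chaperone that XBP1 induces, was at 9.17, 9.20 and 9.33 and then at 9.70, 9.60 and 9.70. Sdf2l1, a partner of BiP in the ER lumen, was at 7.64, 7.63 and 7.58 and then at 7.94, 8.18 and 8.03. The groups did not overlap for any of the 3 genes. The log2 differences were 0.40 ± 0.11 for Hspa5, 0.44 ± 0.09 for Dnajb9 and 0.43 ± 0.10 for Sdf2l1, and their limma adjusted p-values were 0.029, 0.012 and 0.015.

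The call of Hspa5 was lost under 7 of 15 alternatives, with an adjusted p from 0.000663 to 0.0938 over all of them. Without empty vector replicates 1 and 3 in turn its adjusted p was 0.0938 and 0.086, and without p53 R273H replicates 1 and 3 it was 0.0705 and 0.0856. The 40 neighbours of Hspa5 on chromosome 2 had a median difference of 0.30, so it exceeded them by 0.10. For Sdf2l1 the adjusted p was 0.0537 without empty vector replicate 3 and 0.0508 without p53 R273H replicate 2, in a range from 0.00121 to 0.0537. Dnajb9 passed under all 15, with an adjusted p from 0.000105 to 0.0485. The 40 neighbours of Dnajb9 on chromosome 12 had a median difference of 0.20, so it exceeded them by 0.24.

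The other 5 chaperones did not pass the test. Hsp90b1, the ER member of the HSP90 family, lay between 11.89 and 12.09 on all arrays and differed by 0.08 ± 0.09. The lectin Calr lay between 10.50 and 10.71 and differed by 0.00 ± 0.10, and the lectin Canx, which holds glycoproteins during folding, differed by -0.20 ± 0.10 with all mutant values lower. The secreted stress proteins Creld2 and Manf differed by -0.03 ± 0.09 and -0.02 ± 0.12. Creld2 lies on chromosome 15, and its 40 neighbours had a median of -0.27. The intervals of these 5 genes reached no further than 0.29 upward and -0.42 downward.

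The protein disulfide isomerases, which form and rearrange disulfide bonds, were all higher in every mutant array, and 2 of 3 passed. Pdia6, which also binds IRE1, was at 9.68, 9.64 and 9.71 with empty vector and at 10.09, 10.33 and 10.39 with p53 R273H. It rose 1.51-fold, by 0.59 ± 0.11, with a limma adjusted p of 0.00515. Pdia3, the isomerase that works with Calr and Canx on glycoproteins, was at 10.05, 9.96 and 10.22 and then at 10.45, 10.33 and 10.53. Its rise of 0.36 ± 0.11 was next to the threshold (limma adjusted p of 0.0486), and its neighbours on chromosome 2 had a median of 0.30.

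The call of Pdia3 was lost under 8 of 15 alternatives, over which its adjusted p ran from 0.00126 to 0.155. It was 0.125 and 0.155 without empty vector replicates 1 and 2, and 0.109, 0.0583 and 0.131 without p53 R273H replicates 1, 2 and 3. Pdia4, a further isomerase of the ER lumen, differed by 0.24 ± 0.09, with a limma adjusted p of 0.0946.

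None of the 4 genes of ER-associated degradation (ERAD), the route by which misfolded proteins leave the ER for the proteasome, passed the test at an adjusted p under 0.05 by limma, and 1 had an unadjusted p under 0.05. That gene was Herpud1, a scaffold of the degradation complex, at 8.63, 8.54 and 8.57 with empty vector and at 8.85, 8.76 and 8.80 with p53 R273H. Its groups did not overlap, the difference was 0.22 ± 0.09, and it passed under 3 of 15 alternatives. Edem1, which marks glycoproteins for removal, differed by 0.20 ± 0.09, and a second, dimmer probe set of Edem1 gave 0.39. Syvn1, the ubiquitin ligase of the complex, differed by 0.14 ± 0.11, and its adaptor Sel1l by 0.07 ± 0.09. All intervals of these 4 genes ended at or under 0.43.

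**Figure D3:**
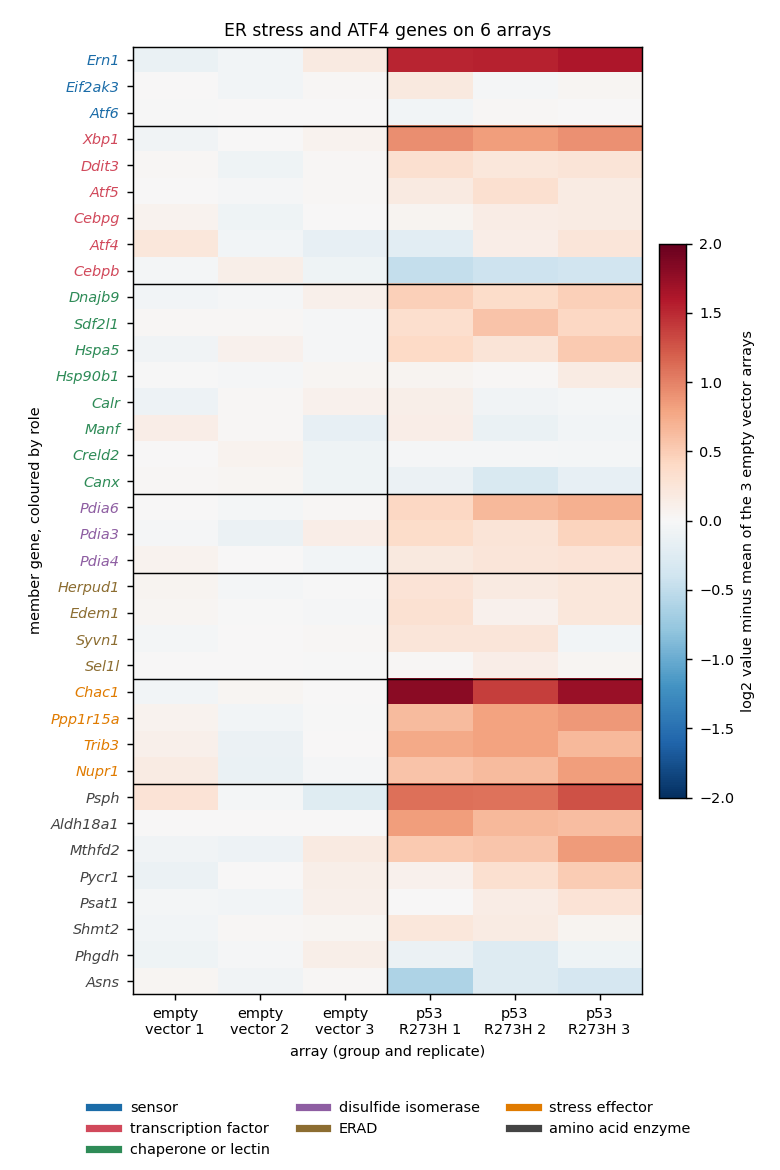
Log2 value of each gene on each of the 6 arrays minus the mean of the 3 empty vector arrays, with genes ordered by role and by difference. The 4 stress effectors, Ern1, Xbp1 and Psph are red on all 3 mutant arrays, and Asns and Cebpb are blue on all 3.

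The enzymes of amino acid and one-carbon metabolism went both ways, with 3 rises and 1 fall among 8. In the serine pathway the last enzyme rose while the first ones did not pass the test. Psph, which removes phosphate from phosphoserine (transcript cluster 17453124, chromosome 5), was at 6.55, 6.24 and 6.04 with empty vector and at 7.38, 7.36 and 7.56 with p53 R273H. The control arrays spread the most of any member, and the gap to the mutant arrays was 0.81. Psph rose 2.23-fold, by 1.16 ± 0.14, with a limma adjusted p of 0.00075. Its 40 neighbours on chromosome 5 had a median difference of 0.59, and all 851 measured genes of that chromosome with a signal above the median, Psph included, had a median of 0.49. Psph exceeded its neighbours by 0.57, and the part of the chromosome in its rise was not tested.

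Phgdh, which opens the serine pathway from a glycolytic intermediate, was at 9.68, 9.75 and 9.88 and then at 9.66, 9.51 and 9.68. Psat1, the next enzyme, was at 7.59, 7.57 and 7.73 and then at 7.63, 7.78 and 7.90. Shmt2, which makes glycine from serine in mitochondria, was at 10.51, 10.58 and 10.60 and then at 10.78, 10.72 and 10.61. Phgdh and Psat1 overlapped between groups, and Shmt2 was apart by 0.01. The differences were -0.15 ± 0.10, 0.14 ± 0.11 and 0.14 ± 0.09, and the 3 intervals together ran from -0.39 to 0.39.

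Mthfd2, the mitochondrial folate enzyme that follows Shmt2, was at 7.43, 7.40 and 7.68 with empty vector and at 8.02, 8.06 and 8.35 with p53 R273H. Aldh18a1, which starts proline synthesis from glutamate, was at 7.93, 7.92 and 7.92 and then at 8.75, 8.57 and 8.54. Neither gene overlapped between groups. Mthfd2 rose 1.56-fold (adjusted p = 0.00852) and Aldh18a1 1.62-fold (adjusted p = 0.00129), both by limma. Pycr1, which completes proline, was at 5.33, 5.45 and 5.55 and then at 5.52, 5.76 and 5.95, and its difference of 0.30 ± 0.13 did not pass.

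Asns, asparagine synthetase, is a classic ATF4 target (transcript cluster 17464718, chromosome 6), and it was at 8.31, 8.20 and 8.29 with empty vector and at 7.66, 8.01 and 7.93 with p53 R273H. All mutant values were lower, and p53 R273H replicate 1 was the lowest. The fall was 1.32-fold, a log2 difference of -0.40 ± 0.12 with a limma adjusted p of 0.0423, while its neighbours had a median of 0.20. The call was lost under 9 of 15 alternatives, with adjusted p-values from 0.00458 to 0.117 over all of them. Among these it was 0.117, 0.0779 and 0.113 without empty vector replicates 1, 2 and 3, 0.0986 and 0.0718 without p53 R273H replicates 1 and 3, and 0.052 once array medians were subtracted.

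**Figure D4:**
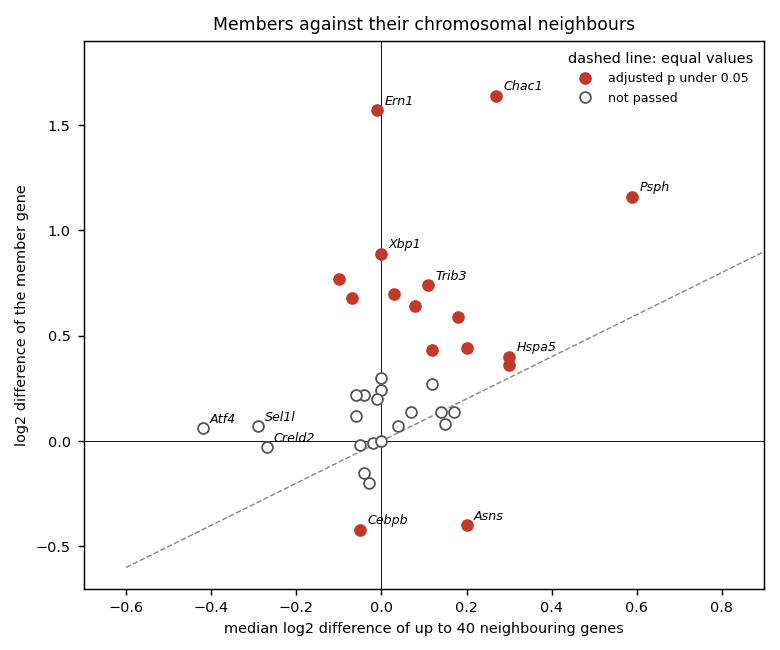
Log2 difference of each of the 36 genes (vertical) against the median log2 difference of up to 40 genes next to it on the chromosome (horizontal); the dashed line marks equal values. Ern1, Xbp1 and Chac1 lie far above the line, Hspa5 and Pdia3 lie close to it, Psph has the highest neighbours at 0.59 and Atf4 the lowest at -0.42.

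Genes of the same pathways outside the 36 were described from 6 lists, for which 11.9% of all genes rising and 11.7% falling is again one background. Nearly all listed genes had a signal above the median, where 18.2% rose and 18.2% fell. Of 20 other ER chaperones and folding enzymes 9 rose, 0 fell and 11 did not pass, with a median of 0.28. At an unadjusted limma p under 0.05 the list also held 0 falls. The disulfide isomerase Pdia5 rose 1.89-fold, from 8.03 ± 0.03 to 8.95 ± 0.03 (SD, n = 3 per group). The prolyl isomerase Fkbp2 rose 1.89-fold too, from 8.33 ± 0.07 to 9.25 ± 0.05, and the disulfide reductase Dnajc10 rose 1.77-fold, with its 40 neighbours on chromosome 2 at a median of 0.57. Set against the median of their neighbours, the 9 genes that rose differed by -0.09 to 0.73, so not all of them exceeded their neighbours. The count of rises was 5 to 7 when each array was left out, and 5 without empty vector replicates 1 and 2 in turn.

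Of 26 genes of ERAD and ER translocation 3 rose and 1 fell, with a median of 0.16. The mannosidase-like protein Edem2 rose by 0.68 ± 0.11, the signal recognition particle gene Srp54a by 0.50 ± 0.09 and the ubiquitin-conjugating enzyme Ube2g2 by 0.43 ± 0.09. Derl1, a channel component on chromosome 15, had a log2 difference of -0.38 ± 0.09, and its 40 neighbours had a median of -0.50. The count of falls was 0 without empty vector replicates 1 and 2 in turn and without p53 R273H replicates 1 and 2 in turn.

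Of 20 other sensors, factors and death regulators 2 rose and 8 fell, with a median of -0.08. Wfs1, an ER membrane protein that limits ER stress and is mutated in Wolfram syndrome, rose 8.57-fold, from 8.49 ± 0.05 to 11.59 ± 0.14 (SD, n = 3 per group), with a limma adjusted p of 1.2e-06. Wfs1 lies on chromosome 5, where its neighbours had a median of 0.43. Creb3l2, a membrane-bound factor related to ATF6, rose 2.26-fold. The death genes Bcl2l11, which encodes BIM, and Tnfrsf10b, a death receptor that CHOP induces in human cells, had log2 differences of -0.90 ± 0.12 and -0.72 ± 0.10, and Bcl2l11 ended at 4.41, under the median of all transcript clusters. Mbtps2, the protease that cleaves ATF6, had -0.82 ± 0.10 and lies on chromosome X, where its 40 neighbours had a median of -0.08. The 8 falls were 4 without empty vector replicate 1 and 5 without empty vector replicate 2, empty vector replicate 3 or p53 R273H replicate 3.

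Of 13 genes of eIF2 kinases, eIF2, its exchange factor eIF2B and its phosphatase, 4 rose and 2 fell, with a median of 0.25. Ppp1cc, a phosphatase catalytic subunit, rose by 0.74 ± 0.09, the amino acid sensor kinase Eif2ak4 (GCN2) by 0.65 ± 0.10, and the eIF2B subunit Eif2b1 by 0.62 ± 0.10. Ppp1cc and Eif2b1 lie on chromosome 5, where their neighbours had medians of 0.42 and 0.60. The eIF2B subunits Eif2b2 and Eif2b3 had differences of -0.35 ± 0.10 and -0.32 ± 0.09. Without each array in turn, the count of falls was 0 or 1.

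ATF4 targets outside the 36 went both ways, with shares near those of genes above the median signal. Of 30 genes 7 rose, 6 fell and 17 did not pass, and the median was 0.01. Slc7a1, which imports arginine and lysine, rose by 1.41 ± 0.10 and lies on chromosome 5, where its neighbours had a median of 0.47. The neutral amino acid transporter Slc1a4 rose by 0.97 ± 0.10. Of the 8 amino acid transporter genes in the list 4 rose, with Slc7a11 and Slc7a5 at 0.83 and 0.57. Slc7a11 went from a mean of 4.12, under the median of all transcript clusters, to 4.95, so its difference is not exact. Slc38a2 fell, with a log2 difference of -0.63 ± 0.09, and lies on chromosome 15, where its 40 neighbours had a median of -0.47. Slc3a2, Slc1a5 and Slc6a9 did not pass the test, at -0.10, 0.03 and -0.01. The lipoprotein receptor Vldlr rose by 1.35 ± 0.16. Among the falls were the secreted hormone Stc2, which was 4.55-fold lower, the mitochondrial folate enzyme Aldh1l2, 4.43-fold lower, and the mTOR inhibitor Ddit4, 3.26-fold lower. Aldh1l2 went from 6.27 ± 0.16 to 4.13 ± 0.28 (SD, n = 3 per group), which is under the median of all transcript clusters, so its fold is not exact.

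Of 20 other genes of serine, glycine, folate and proline metabolism 2 rose and 5 fell, with a median of -0.09. The transaminase Got1 rose by 0.80 ± 0.09 and the mitochondrial serine carrier Sfxn1 by 0.46 ± 0.09. Prodh, which breaks down proline, had a log2 difference of -0.91 ± 0.11, and the folate carrier Slc25a32, on chromosome 15 with neighbours at -0.43, had -0.54 ± 0.10. Aldh18a1 and Prodh, at opposite ends of proline metabolism, thus differed in opposite directions. The 5 falls were 3 without empty vector replicate 3.

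**Figure D5:**
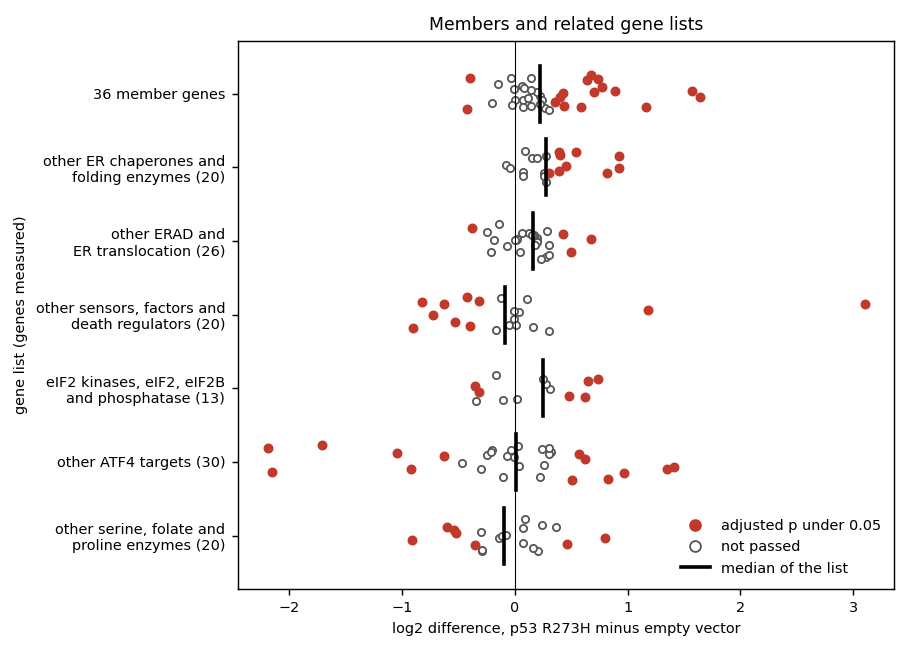
Log2 difference of every gene in the 36 members and in 6 lists of related genes outside them; filled points passed an adjusted p under 0.05 and the bar is the median. The other chaperones have no fall that passed, the other ATF4 targets spread from -2.19 to 1.41, and Wfs1 stands alone at 3.10.

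Wider groups were taken from the gene annotations in the authors' table. Of 29 genes outside the 36 annotated to the response to unfolded protein 5 rose and 3 fell, with a median of 0.11. Of 15 annotated to the ER unfolded protein response 3 rose and 3 fell, with a median of 0.11. Of 23 annotated to the ER-associated protein catabolic process 4 rose and 2 fell, with a median of 0.05. Of 114 genes annotated to protein folding 21 rose and 21 fell, with a median of 0.00, beside 18.2% rising and 18.2% falling among genes with a signal above the median. These annotations are cut off in long cells, so some memberships are missing.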

How the data were processed

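The authors deposited log2 expression values of 41345 transcript clusters on 6 arrays and a table of their own comparison, with a p-value, a step-up p-value, a linear ratio, a signed fold (a score) and F statistics per transcript cluster, per the file headers. Labelling used a GeneChip WT PLUS kit, per the labels' protocols; the sources used here do not state the authors' array model, background correction or normalization. A log2 scale was taken for the values since the ratio in the deposited table, once logged, met the difference of group means within 6.64e-05. The number of arrays limits the precision.

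Symbols came from the authors' deposited table. Rows without a symbol (14313) and 804 rows naming several genes were left out, and the probe set with the highest mean over all arrays stood for a gene, which left 24268 genes, dim ones included. Among the members this choice concerned Edem1. The 2 groups were tested in R 4.3.3 by limma 3.58.1 (moderated, two-sided, no covariates), with Benjamini-Hochberg adjustment over all genes and a threshold of 0.05; intervals are 95% intervals of that model. An exact permutation of 3 arrays against 3 cannot go below p = 0.1 and was not used. The script was tested on simulated data. Chromosomes and neighbours came from a RefSeq table (GRCm38.p6), with up to 20 protein-coding genes on each side whose higher group mean exceeded 4.53; the deposited files name no build, so coordinates are given for RefSeq promoters alone.

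The members and lists were chosen with earlier results of these data known. All members are reported, and from each list the 3 largest rises and falls that passed; Eif2b2 and Eif2b3 are the only falls of their list, and 1 gene that the rule names is not reported here. The transporters Slc7a11, Slc7a5, Slc38a2, Slc3a2, Slc1a5 and Slc6a9 were named after their values were seen. The tests were repeated with dim genes left out, array medians subtracted, quantile normalization, the mean over probe sets, all transcript clusters, a trended and robust variance, no moderation, a replicate block, leaving out each array, a threshold of 0.01 and a minimum of 1.5-fold.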

Additional observations from a re-analysis of the deposited data

How the results depend on the processing

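Members that rose numbered 14, and from 10 to 18 over the alternatives, with 12 to 13 when each array was left out. Members that fell numbered 2. They were 1 after subtraction of array medians, over all transcript clusters, without moderation and with the replicate block, 0 at an adjusted p under 0.01 and 0 with at least 1.5-fold, 3 with a trended and robust variance, where Canx passed too, and 0 to 2 when each array was left out. All genes that changed numbered 5721, and 3581 at an adjusted p under 0.01, 3222 with at least 1.5-fold and 4424 to 4876 when each array was left out, but 6852 with a trended and robust variance, 6371 and 6341 with dim genes left out and 6093 over all transcript clusters. Ern1, Xbp1, Dnajb9, Pdia6, Chac1, Trib3, Ppp1r15a, Nupr1, Psph, Aldh18a1 and Mthfd2, 11 of the 16 called members, passed under all 15 alternatives that refit the members. The other 5 lost the call under at least 1. Of the 20 uncalled members 5 passed under at least 1 alternative and 15 under none. No member changed sign with a call. Same-numbered arrays of the 2 groups did not deviate together (correlations of -0.07, 0.01 and 0.00 across genes). The labels state no pairing, and these correlations cannot show whether same-numbered samples were handled together. With the replicate block 12 members rose and 1 fell, and 4831 genes changed in all. At a step-up p under 0.05, the authors' deposited table gave a ratio above 1 for 14 members and under 1 for 1 member, and these are not all the same genes: Hspa5, Pdia3, Mthfd2 and Asns did not pass there, while Ddit3, Pdia4 and Herpud1 did. Whether dim signals exceed background is not known from these files.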
